A study of Mus musculus with 9 samples.

Results

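The genes described here are 10 genes of differentiating spermatogonia: the receptor gene Kit, the transcription factor genes Sohlh1, Sohlh2, Dmrt1, Dmrtb1, Dmrtc2, Rhox13 and Sall4, and the enzyme genes Uchl1 and Prss50. They were taken by name from a table of 24505 genes, and all 10 were present and passed the filter on low counts in every comparison. The question was how each gene's mRNA stood in spermatogonia at the end of differentiation and in the preleptotene (PL) spermatocytes that follow them, with and without retinoic acid (RA), the vitamin A derivative that starts spermatogonial differentiation. Each gene is given library by library, because libraries within the RA-deficient group differed for several of them.

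mRNA was sequenced from 9 libraries of EGFP+ cells sorted from testes of Uchl1-eGfp mice, a line first made on C57BL/6 and then outcrossed to CD-1, in which the Uchl1 promoter drives EGFP. Every animal, those of the In/B group included, received WIN 18,446, an inhibitor of RA synthesis, at 100 µg/g of body weight from postnatal day (P)1 to P10 and then a single injection of RA at P11 (10 µl at 10 µg/µl in DMSO). The 3 In/B libraries hold intermediate and type B spermatogonia (EGFP-bright cells) at P17, and the 3 RA-sufficient PL libraries hold PL spermatocytes (EGFP-dim cells) at P19, both from mice given no further WIN 18,446. The 3 RA-deficient PL libraries hold PL spermatocytes at P19 from mice that stayed on daily WIN 18,446 after the RA injection. Testes of littermates were pooled for each preparation, so that a library is not 1 animal, and no group lacks the first course of inhibitor. No In/B library came from mice on continued WIN 18,446, so a fall or rise from In/B to RA-deficient PL also spans the change of regimen. The methods name independent cell preparations without tying them to libraries, and the p-values measure only the spread between libraries, which may be partly technical.

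KIT is the receptor tyrosine kinase that marks differentiating spermatogonia, and its ligand KITL is made by the Sertoli cells that surround them. SOHLH1 and SOHLH2 are basic helix-loop-helix (bHLH) factors of spermatogonia that bind E-boxes and are needed for Kit expression and differentiation. The DM-domain factors act in sequence in male germ cells: DMRT1 holds spermatogonia in mitosis, DMRTB1 (also called DMRT6) acts at the exit from the spermatogonial program, and DMRTC2 (also called DMRT7) is needed later, in pachytene spermatocytes.

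Stretches of promoter are shown for Kit, Sohlh1, Sohlh2 and Dmrtc2, since these are the receptor gene, the bHLH pair, whose levels took different orders across the groups, and the DMRT gene that rose. They were taken from RefSeq promoters of GRCm38.p6 and placed in mm9, the build of the count table, by an exact and single match. Each runs 5′ to 3′ on the gene's strand up to its start, less any base inside the GENCODE gene. Capitals mark E-boxes (CANNTG, a palindrome, so 1 scan covers both strands) and the nuclear receptor half-site AGGTCA on either strand. In Sohlh1 the half-site overlaps an E-box.
Kit, chr5:75970762-75970940 (+): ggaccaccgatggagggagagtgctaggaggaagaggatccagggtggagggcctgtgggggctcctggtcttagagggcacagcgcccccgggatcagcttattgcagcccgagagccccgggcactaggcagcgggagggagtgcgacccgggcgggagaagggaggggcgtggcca
Sohlh1, chr2:25702769-25703018 (-): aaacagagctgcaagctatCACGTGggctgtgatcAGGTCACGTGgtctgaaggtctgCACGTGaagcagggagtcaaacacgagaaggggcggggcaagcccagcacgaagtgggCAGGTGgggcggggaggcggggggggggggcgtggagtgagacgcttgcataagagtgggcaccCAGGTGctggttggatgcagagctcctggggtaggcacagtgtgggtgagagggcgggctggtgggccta
Sohlh2, chr3:54985716-54985949 (+): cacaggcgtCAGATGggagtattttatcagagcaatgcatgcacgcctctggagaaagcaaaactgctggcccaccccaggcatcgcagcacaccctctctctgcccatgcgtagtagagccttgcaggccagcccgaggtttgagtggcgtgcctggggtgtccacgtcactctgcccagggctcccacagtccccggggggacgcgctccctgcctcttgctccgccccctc
Dmrtc2, chr7:25654826-25655075 (+): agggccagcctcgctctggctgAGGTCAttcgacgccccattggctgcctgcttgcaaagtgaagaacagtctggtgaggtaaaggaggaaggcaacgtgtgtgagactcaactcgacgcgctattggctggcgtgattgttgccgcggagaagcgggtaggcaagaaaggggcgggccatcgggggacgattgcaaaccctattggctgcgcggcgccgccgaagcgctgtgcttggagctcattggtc

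A window of 250 bases upstream was found for 8 of the 10 genes, all but Dmrt1 and Sall4. Sohlh1 held 5 E-boxes, 3 of them CACGTG, and Sohlh2 held 1. Kit and Dmrtc2 held none, and E-boxes were present in 66.0% of 27025 mouse promoters of the same length. The half-site AGGTCA was present in 13.8% of those promoters and in 2 of the 8, Sohlh1 and Dmrtc2. The core of the DMRT1 motif, ACAATGT, was in none of the 8 windows and in 2.58% of all promoters. Motif matches describe these letters only.

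The libraries held 12612959 to 27042274 counts each. Levels are given in CPM, counts relative to the library size after TMM scaling. A gene was called when its log2 fold change was above 1 in size and its p from the quasi-likelihood test of edgeR, after Benjamini-Hochberg adjustment over all genes tested, was below 0.05. The lowest count of any of the 10 genes in any library was 77, for Sohlh1 in RA-sufficient replicate 1. RA-deficient replicate 3 stood apart from its group, with a chi-square per gene of 102 against each of the other RA-deficient libraries, which differed from each other by 19.3. Within the other groups, replicate 1 also lay apart, at 33.5 and 37.7 in In/B against 5.96 between replicates 2 and 3, and at 39.8 and 55.7 in RA-sufficient PL against 10.2. Each gene's log2 fold change for RA-deficient PL, among the 10, is given with and without replicate 3. Related genes are given by library, by their range, or by fold change or call alone. Fold changes and calls of related genes all keep replicate 3, so a split within RA-deficient PL does not show in those given without library values. Within the markers, the summed level of 12 Sertoli genes was 86.7 to 400 CPM in In/B, 3172 to 4258 CPM in RA-sufficient PL and 365 to 630 CPM in RA-deficient PL. For 14 stem and progenitor spermatogonia genes the sum was 337 to 588 CPM in In/B, 193 to 309 CPM in RA-sufficient PL and 398 to 510 CPM in RA-deficient PL. In RA-sufficient PL against In/B, 3 of the 14 were higher, 5 lower and 6 not called. Of all genes, 26.1% were higher and 19.3% lower in that comparison. Zbtb16, the largest part of the In/B sum, was at 172 to 304 CPM in In/B and 41.9 to 91.0 CPM in RA-sufficient PL. Gfra1 went the other way, from 7.74 to 14.8 CPM in In/B to 25.7 to 41.4 CPM in RA-sufficient PL. Of these 14, 4 were higher in RA-deficient than in RA-sufficient PL and 10 were not called, where 4.47% of all genes were higher. Summed over 6 early prophase genes, the level was 476 to 1040 CPM in In/B and 2030 to 2374 CPM in RA-sufficient PL. In RA-deficient PL it was 2494 to 2651 CPM, so that in the sum every PL library lay above every In/B library. Against In/B, 4 of the 6 were called higher in each PL group and 2 were not called, where 26.1% and 11.4% of all genes were higher. Meioc, at 224 to 595 CPM in In/B and 440 to 519 CPM in RA-sufficient PL, overlapped between these groups. So did Stra8, at 54.4 to 165 and 121 to 444 CPM.

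**Figure D1:**
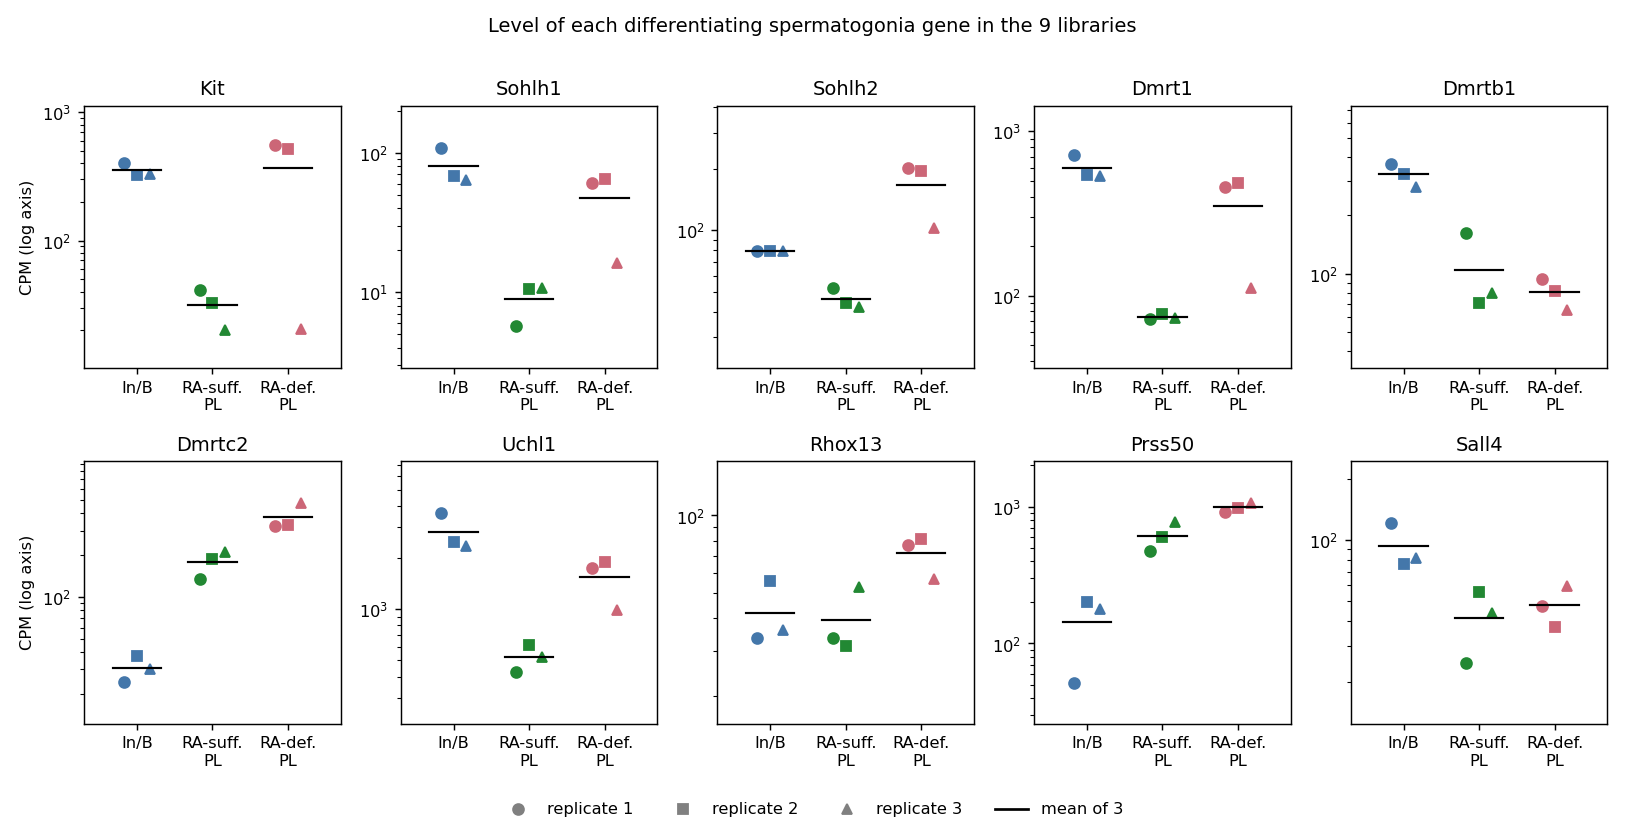
Level of each of the 10 genes in each library in CPM on a log axis, one panel a gene, with a point for each library (circle, square and triangle for replicates 1, 2 and 3) and a black line at the mean of 3. Kit, Sohlh1, Dmrt1 and Uchl1 are low in the RA-sufficient PL libraries, and in RA-deficient PL the triangle of Kit, at 20.3 CPM, lies far below the other points at 561 and 521 CPM.

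Between In/B spermatogonia and RA-sufficient PL spermatocytes, 6 of the 10 genes fell (Kit, Sohlh1, Dmrt1, Dmrtb1, Uchl1 and Sall4) and 2 rose (Dmrtc2 and Prss50). Uchl1, counted here and in the medians, is tied to the sort of bright In/B and dim PL cells, since its promoter drives the EGFP. Of all 15001 genes tested, 45.4% were called, 19.3% lower and 26.1% higher. The median log2 fold change was -1.35 over the 10 genes and 0.043 over all genes tested. Between RA-deficient PL and In/B, 3 rose (Sohlh2, Dmrtc2 and Prss50) and 1 fell (Dmrtb1), against 23.2% of 14877 genes called, and without RA-deficient replicate 3 Rhox13 was called as well, making 5. The median was -0.18 over the 10 genes and 0.0038 over all genes. In the PL groups' own comparison, 6 were higher in RA-deficient PL (Kit, Sohlh1, Sohlh2, Dmrt1, Dmrtc2 and Uchl1) and none was lower. With 1 library left out the count was 2 to 6, lowest without RA-sufficient replicate 1 (Sohlh2 and Uchl1), and without RA-deficient replicate 3 it was 6 with Rhox13 in place of Dmrtc2. Here 15.5% of 15352 genes were called, 4.47% higher and the other 1696 genes lower (2383 in all, and 1190 to 4484 with 1 library left out), and the medians were 1.32 over the 10 genes and -0.089 over all genes. The 3 comparisons share libraries in pairs, so they are not independent of one another.

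**Figure D2:**
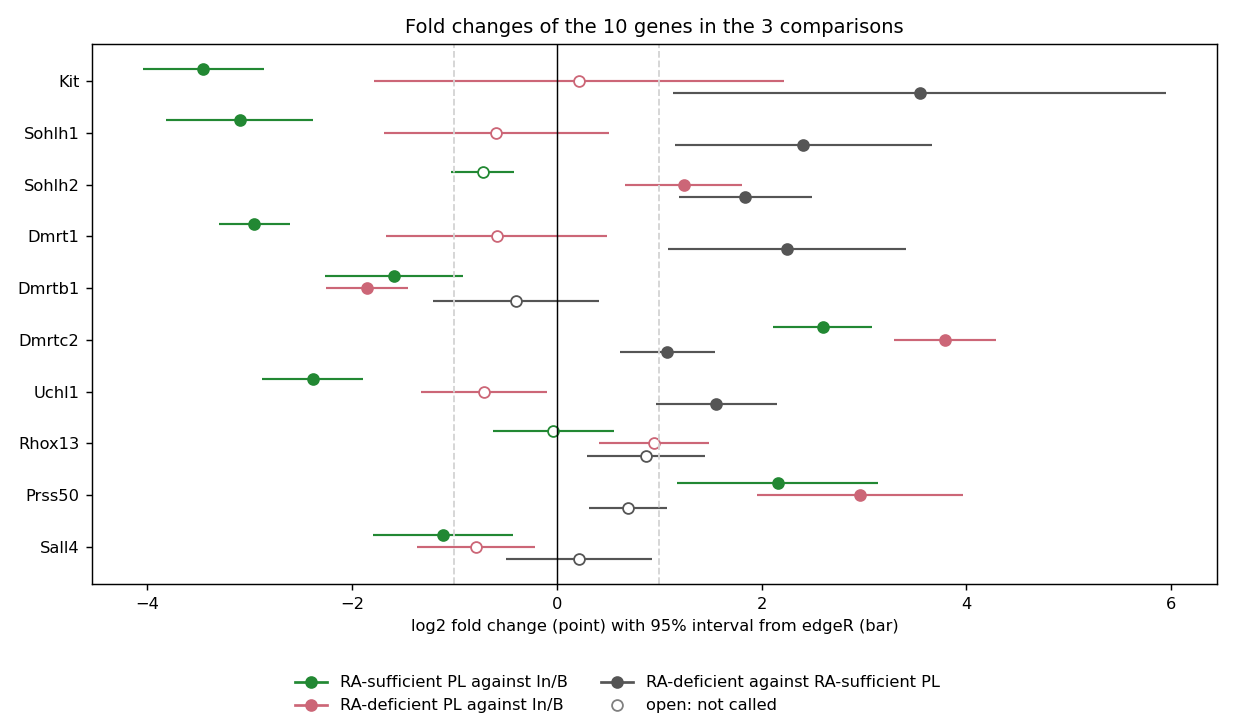
log2 fold change of each gene in the 3 comparisons, with the 95% interval from edgeR as a bar, filled points for called differences, open points for the rest, and dashed lines at -1 and 1. Kit has the widest interval, from 1.13 to 5.95 for RA-deficient against RA-sufficient PL, and Dmrtc2 and Prss50 lie right of 0 in all 3 comparisons.

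Kit (chr5:75970941-76052747, + strand) was measured at 404, 327 and 331 CPM in In/B replicates 1 to 3, and at 41.0, 32.8 and 20.2 CPM in RA-sufficient PL. Every RA-sufficient PL library was far below every In/B library, and Kit fell by 3.45 on the log2 scale (SE 0.26, adjusted p = 1.91e-05), a 10.9-fold difference. In RA-deficient PL it was measured at 561, 521 and 20.3 CPM. Replicates 1 and 2 were above every In/B library, whereas replicate 3 was at the level of the lowest RA-sufficient PL library. Against In/B the log2 fold change was 0.22 (SE 0.87, 95% interval -1.78 to 2.22, adjusted p = 0.874), an interval too wide to show equality. Without replicate 3 it was 0.78 (adjusted p = 0.0017), below the size needed for a call. Against RA-sufficient PL, Kit was higher by 3.54 (SE 1.03, adjusted p = 0.0443), and by 4.13 without RA-deficient replicate 3 (adjusted p = 0.000129). The call was lost when any of the other 5 PL libraries was left out, with adjusted p up to 0.142 and log2 fold changes of at least 3.12. It was also lost with the library size alone as scaling (adjusted p = 0.0527) and with the replicate number as a block (2.75, adjusted p = 0.0799). Whether same-numbered libraries belong together is not known. In bulk libraries, fewer cells with an mRNA and less of it per cell cannot be told apart.

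Kitl, the gene for the KIT ligand, was measured at 2.91, 8.51 and 5.71 CPM in In/B, 57.8, 44.3 and 32.9 CPM in RA-sufficient PL, and 2.84, 3.41 and 11 CPM in RA-deficient PL. It rose by 3.03 in RA-sufficient PL against In/B (SE 0.38, adjusted p = 0.0002) and was lower by 2.99 in RA-deficient than in RA-sufficient PL (SE 0.57, adjusted p = 0.0116). The ligand was highest in the group in which the receptor was lowest, which was also the group with the highest Sertoli markers. All 12 Sertoli markers measured were higher in RA-sufficient PL than in In/B, and all 12 were lower in RA-deficient than in RA-sufficient PL. Their part in the Kitl values was not tested. KIT is also known from mast cells and Leydig cells. The 5 mast cell markers summed to at most 0.485 CPM in any library, and the 7 Leydig markers to 105 to 110 CPM in RA-sufficient PL, where Kit was lowest, against 10.9 to 34.6 CPM in the other groups. Of that sum in RA-sufficient PL, Nr5a1, which Sertoli cells also express, made up 71.1 to 76.4 CPM and Star 21.4 to 23.4 CPM, and each of the others was at most 7.85 CPM. Insl3, a defining Leydig marker, was at 0 in 8 libraries and at 0.0441 CPM in RA-sufficient replicate 3. The part of mast cells and Leydig cells in the Kit values was not tested.

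Of 37 tested genes of KIT signalling other than Kit, 6 were higher and 5 lower in RA-sufficient PL than in In/B, with a median log2 fold change of -0.26, against 26.1% higher and 19.3% lower over all genes tested, so the share called was below that of all genes. Gab2, the gene for an adaptor downstream of receptor tyrosine kinases, was at 14.4 to 16.1 CPM in In/B, 188 to 211 CPM in RA-sufficient PL and 223 to 278 CPM in RA-deficient PL. It rose by 3.77 (SE 0.13, adjusted p = 8.28e-06) and by 4.20 (SE 0.14, adjusted p = 1.2e-05), and between the PL groups the difference was 0.32 (SE 0.13, adjusted p = 0.116). Sos2, an exchange factor for RAS, rose by 3.18 and 3.41 against In/B (SE 0.17 and 0.34). Rps6kb2, a ribosomal S6 kinase gene, rose by 1.24 and 2.26 (SE 0.29 and 0.34). RA-deficient PL exceeded RA-sufficient PL in 1 gene, Pik3r2, and was lower in 1, Kitl, with 35 not called. In RA-deficient PL against In/B, 6 were higher and 1, Grb2, was lower, where 23.2% of all genes were called.

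Sohlh1 (chr2:25698515-25702768, - strand), whose promoter held the 5 E-boxes, was measured at 108, 68.2 and 63.4 CPM in In/B and at 5.67, 10.5 and 10.7 CPM in RA-sufficient PL. The groups did not overlap, and Sohlh1 fell by 3.10 (SE 0.31, adjusted p = 6.62e-05). In RA-deficient PL it was at 60.8, 65.2 and 16.3 CPM, with replicates 1 and 2 next to the lower In/B libraries and replicate 3 near RA-sufficient PL. Against In/B the log2 fold change was -0.59 (SE 0.48, adjusted p = 0.386), and -0.18 without replicate 3 (adjusted p = 0.59). Against RA-sufficient PL, Sohlh1 was higher by 2.41 (SE 0.54, adjusted p = 0.0196), and by 2.81 without RA-deficient replicate 3 (adjusted p = 0.000464). As with Kit, leaving out any of the other 5 PL libraries raised the adjusted p above 0.05, to at most 0.0785.

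Sohlh2 (chr3:54985950-55013879, + strand) did not run parallel to Sohlh1. It was at 79.5, 79.5 and 79.4 CPM in In/B, 52.4, 44.3 and 42.2 CPM in RA-sufficient PL, and 203, 195 and 103 CPM in RA-deficient PL. None of the 3 groups overlapped, with RA-sufficient PL lowest and RA-deficient PL highest. The difference of RA-sufficient PL from In/B was -0.73 (SE 0.14, adjusted p = 0.00167), under the size needed for a call. RA-deficient PL was above In/B by 1.24 (SE 0.25, adjusted p = 0.00618) and above RA-sufficient PL by 1.84 (SE 0.28, adjusted p = 0.00501). Without RA-deficient replicate 3 these were 1.49 (adjusted p = 3.04e-05) and 2.11 (adjusted p = 0.000129). The call between the PL groups was kept when any 1 library was left out, with adjusted p of at most 0.0279. Scaling by library size alone took the rise over In/B to 0.92 (adjusted p = 0.0202), which is not called.

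Of 15 bHLH factors, ID proteins and partners of this class, Sohlh1 and Sohlh2 included, 3 were higher and 4 lower in RA-sufficient PL than in In/B, a share near the 45.4% called over all genes. Tcf3, which encodes E2A, a widely expressed dimer partner of bHLH factors, was at 260 to 324 CPM in In/B, 54.2 to 113 CPM in RA-sufficient PL and 160 to 243 CPM in RA-deficient PL. It fell by 1.69 (SE 0.24, adjusted p = 0.000379) and was higher by 1.26 in RA-deficient than in RA-sufficient PL (SE 0.27, adjusted p = 0.0161). Tcf4, another E protein gene, was instead highest in RA-sufficient PL, at 13.1 to 19.3 CPM in In/B, 25.9 to 37.8 CPM in RA-sufficient PL and 7.09 to 10.4 CPM in RA-deficient PL. It was lower by 1.89 in RA-deficient than in RA-sufficient PL (SE 0.28, adjusted p = 0.00478). Figla, a germ cell bHLH gene best known from oocytes, was at 5.48, 2.61 and 2.66 CPM in In/B, 8.10, 7.88 and 11.4 CPM in RA-sufficient PL, and 37.3, 29.3 and 11.2 CPM in RA-deficient PL, so that replicate 3 again lay at the RA-sufficient level. Of the 15, 5 were higher in RA-deficient than in RA-sufficient PL (Sohlh1, Sohlh2, Tcf3, Figla and Neurog3) and 2 lower (Tcf4 and Id2), where 15.5% of all genes were called.

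Dmrt1 (chr19:25580108-25678819, + strand) was measured at 711, 538 and 534 CPM in In/B and at 72.1, 76.8 and 72.8 CPM in RA-sufficient PL, the tightest set of any of the 10 genes in that group. It fell by 2.95 (SE 0.15, adjusted p = 1.08e-05), a 7.75-fold difference. In RA-deficient PL it was at 460, 485 and 111 CPM. Replicates 1 and 2 lay just under the lowest In/B library, and replicate 3 lay above RA-sufficient PL but much closer to it. Against In/B the log2 fold change was -0.59 (SE 0.47, adjusted p = 0.377), and -0.16 without replicate 3 (adjusted p = 0.419). Dmrt1 was higher in RA-deficient than in RA-sufficient PL by 2.25 (SE 0.50, adjusted p = 0.019), and by 2.69 without RA-deficient replicate 3 (adjusted p = 8.79e-05). Leaving out any of the other 5 PL libraries took the adjusted p to between 0.0502 and 0.0773. DMRT1 is also made by Sertoli cells, and Dmrt1 was lowest in the group in which the Sertoli markers were highest. The part of Sertoli cells in the Dmrt1 values was not tested.

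Dmrtb1 (chr4:107348895-107356835, - strand) was low in both PL groups. It was at 366, 328 and 281 CPM in In/B, 162, 70.7 and 79.8 CPM in RA-sufficient PL, and 93.5, 81.8 and 65.0 CPM in RA-deficient PL. RA-sufficient replicate 1 was the highest PL library but still below all of In/B. Dmrtb1 fell by 1.59 in RA-sufficient PL (SE 0.30, adjusted p = 0.00154) and by 1.85 in RA-deficient PL (SE 0.17, adjusted p = 0.000195), and by 1.72 without RA-deficient replicate 3. Between the PL groups the difference was -0.40 (95% interval -1.21 to 0.41, adjusted p = 0.439), and -0.24 without RA-deficient replicate 3. That interval does not show the groups to be equal.

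Dmrtc2 (chr7:25655076-25662670, + strand) rose in both PL groups. It was at 24.4, 37.2 and 30.1 CPM in In/B, 134, 188 and 211 CPM in RA-sufficient PL, and 326, 330 and 471 CPM in RA-deficient PL, with no overlap of any pair of groups. The rises over In/B were 2.60 (SE 0.21, adjusted p = 2.53e-05) and 3.79 (SE 0.21, adjusted p = 3.99e-05), or 6.05-fold and 13.8-fold, and the latter was 3.60 without RA-deficient replicate 3. RA-deficient PL exceeded RA-sufficient PL by 1.08 (SE 0.20, adjusted p = 0.0101). Here RA-deficient replicate 3 was the highest library, and without it the difference was 0.89 (adjusted p = 0.00752), no longer above the size needed for a call. Without RA-sufficient replicate 1 it was 0.93 (adjusted p = 0.0346), and with library size alone as scaling 0.89 (adjusted p = 0.0214).

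Of the 8 DMRT family genes tested between the PL groups, 3 were higher in RA-deficient PL (Dmrt1, Dmrt3 and Dmrtc2) and 3 lower (Dmrta1, Dmrtc1a and Dmrtc1b), where 15.5% of all genes were called. Dmrt3, which lies next to Dmrt1 on chromosome 19, was at 12.9, 11.4 and 11.5 CPM in In/B, 2.36, 2.36 and 2.34 CPM in RA-sufficient PL, and 11.1, 9.03 and 3.54 CPM in RA-deficient PL. The order of its libraries was therefore close to that of Dmrt1. It fell by 2.29 (SE 0.26, adjusted p = 0.000118) and was higher by 1.74 in RA-deficient than in RA-sufficient PL (SE 0.51, adjusted p = 0.0459). Dmrta1 went the other way, at 1.79, 10.5 and 4.86 CPM in In/B, 123, 79.4 and 76.7 CPM in RA-sufficient PL, and 11.7, 9.43 and 10.5 CPM in RA-deficient PL. It rose by 4.06 (SE 0.53, adjusted p = 0.000233) and was lower by 3.16 in RA-deficient than in RA-sufficient PL (SE 0.26, adjusted p = 0.000815). Dmrtc1a was at 46.9 to 83.9 CPM in RA-sufficient PL and at most 9.47 CPM elsewhere, and Dmrtc1b at 8.31 to 15.5 CPM in RA-sufficient PL and at most 0.713 CPM elsewhere. Dmrtc1a and Dmrtc1b are close copies on the X chromosome, so the split of reads between them is uncertain. These X-linked genes and Dmrta1 were high in the same libraries as the Sertoli markers, whose part was not tested.

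**Figure D3:**
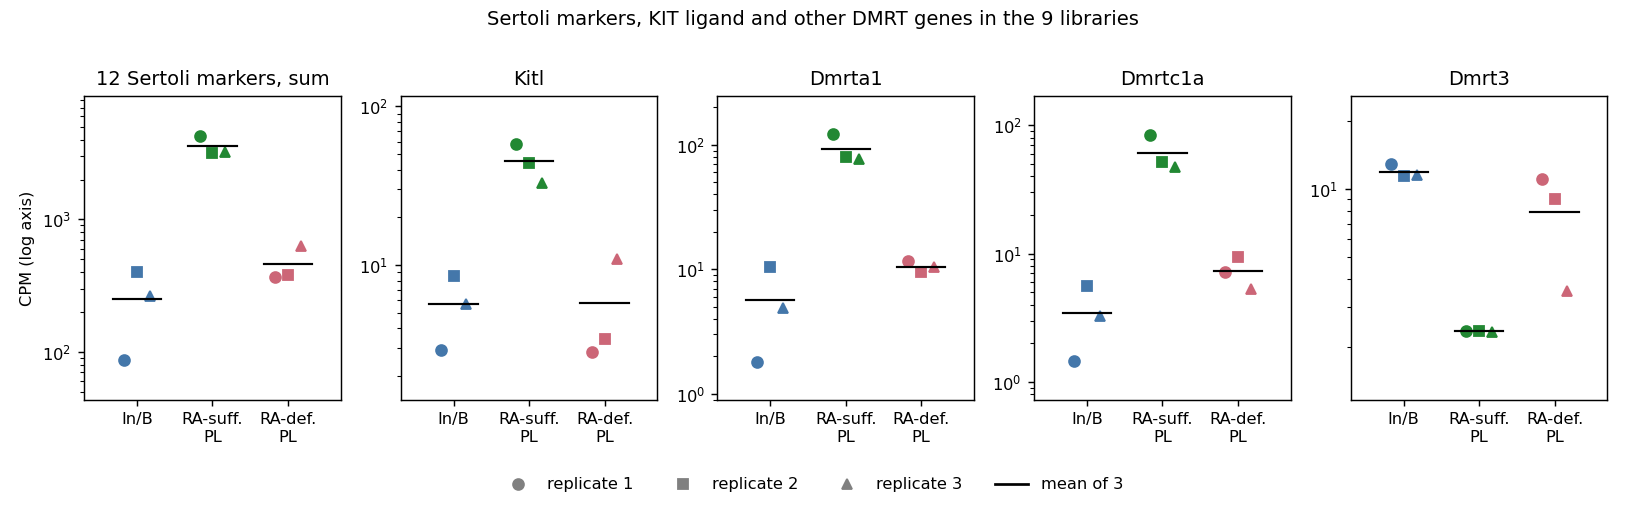
Summed level of 12 Sertoli markers and levels of Kitl, Dmrta1, Dmrtc1a and Dmrt3 in each library, in CPM on log axes, with a line at the mean of 3. The first 4 panels are high in RA-sufficient PL, from 32.9 to 57.8 CPM for Kitl, and Dmrt3 is low there, from 2.34 to 2.36 CPM.

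Sall4 (chr2:168573832-168593443, - strand), a zinc finger gene of spermatogonia, was at 122, 75.9 and 81.4 CPM in In/B, 25.0, 55.7 and 43.9 CPM in RA-sufficient PL, and 47.3, 37.5 and 59.6 CPM in RA-deficient PL. All PL libraries lay below all In/B libraries and the PL groups overlapped. It fell by 1.11 in RA-sufficient PL (SE 0.30, adjusted p = 0.0105). Without In/B replicate 1 the difference was -0.87 (adjusted p = 0.0337) and without RA-sufficient replicate 1 it was -0.86 (adjusted p = 0.0161), neither of which is called. In RA-deficient PL the difference from In/B was -0.79 (SE 0.25, adjusted p = 0.0399), under the size needed, and -0.97 without RA-deficient replicate 3. Between the PL groups it was 0.22 (95% interval -0.50 to 0.93, adjusted p = 0.641), and 0.04 without that replicate. Sall4 overlaps the antisense lincRNA Gm14261, and whether counting used strand is not given in the sources used here. Its relative Sall1 was at 77.4, 49.2 and 55.1 CPM in In/B, 4.34, 14.1 and 11.2 CPM in RA-sufficient PL, and 60.5, 56.2 and 69.0 CPM in RA-deficient PL. Sall1 fell by 2.56 (SE 0.40, adjusted p = 0.00057) and was higher by 2.65 in RA-deficient than in RA-sufficient PL (SE 0.40, adjusted p = 0.00496), with all RA-deficient libraries inside the In/B range.

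SALL4 works with the NuRD chromatin complex, of which 13 genes were tested. In RA-sufficient PL 2 fell, Hdac2 and Mta1, and 11 were not called, a share not above the 19.3% lower over all genes. Hdac2, a histone deacetylase gene, was at 280 to 325 CPM in In/B and 83.1 to 87.9 CPM in RA-sufficient PL, and fell by 1.77 (SE 0.11, adjusted p = 1.18e-05). In RA-deficient PL it was at 86.9 to 125 CPM and was lower than In/B by 1.34 (SE 0.16, adjusted p = 0.00054). Mta1, another subunit gene, was at 238, 234 and 218 CPM in In/B, 53.6, 37.2 and 41.6 CPM in RA-sufficient PL, and 184, 167 and 68.9 CPM in RA-deficient PL. It fell by 2.33 (SE 0.16, adjusted p = 1.46e-05) and was higher by 1.66 in RA-deficient than in RA-sufficient PL (SE 0.37, adjusted p = 0.0199).

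Rhox13 (chrX:35474396-35483143, + strand), an X-linked homeobox gene of germ cells, was at 33.7, 55.8 and 35.9 CPM in In/B and at 33.5, 31.3 and 53.0 CPM in RA-sufficient PL. The groups overlapped almost fully, and the log2 fold change was -0.03 (95% interval -0.62 to 0.56, adjusted p = 0.921). In RA-deficient PL it was at 76.9, 80.9 and 56.8 CPM, above every other library. The differences were 0.95 from In/B (SE 0.23, adjusted p = 0.0146) and 0.87 from RA-sufficient PL (SE 0.25, adjusted p = 0.0416), both short of a call. Without RA-deficient replicate 3 they were 1.09 (adjusted p = 0.00338) and 1.01 (adjusted p = 0.0127), both called. Of 6 tested RHOX cluster genes, Rhox8, known from Sertoli cells, rose by 4.15 in RA-sufficient PL (SE 0.57, adjusted p = 0.000292), and Rhox1 was higher by 1.44 in RA-deficient than in RA-sufficient PL (SE 0.37, adjusted p = 0.0316). Rhox1 was at 28.3, 25.0 and 11.9 CPM in RA-deficient PL and at 6.12 to 9.48 CPM in the other groups.

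Uchl1 (chr5:67067360-67078472, + strand), the gene for a ubiquitin hydrolase, is tied to the sort, since its promoter drives the EGFP by which bright In/B and dim PL cells were taken. It was at 3657, 2451 and 2352 CPM in In/B, 425, 613 and 525 CPM in RA-sufficient PL, and 1728, 1885 and 991 CPM in RA-deficient PL. None of the groups overlapped. It fell by 2.38 in RA-sufficient PL (SE 0.22, adjusted p = 3.93e-05), the direction of the gate. Between the PL groups, both taken as dim cells, Uchl1 was higher in RA-deficient PL by 1.56 (SE 0.25, adjusted p = 0.00633), and by 1.80 without RA-deficient replicate 3 (adjusted p = 0.00029). That call was kept when any 1 library was left out. The difference of RA-deficient PL from In/B was -0.71 (SE 0.27, adjusted p = 0.0696), and -0.48 without replicate 3 (adjusted p = 0.0821). How bright the sorted cells were in each library was not analysed here. Uchl1 overlaps the antisense lincRNA Gm16832. Of its family, Uchl5 fell by 1.06 in RA-sufficient PL (SE 0.19, adjusted p = 0.00111).

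Prss50 (chr9:110760471-110767132, + strand), a testis serine protease gene, was at 51.8, 200 and 177 CPM in In/B, 471, 597 and 767 CPM in RA-sufficient PL, and 910, 986 and 1071 CPM in RA-deficient PL. In/B replicate 1 was well under its group, and the groups did not overlap. Prss50 rose by 2.16 in RA-sufficient PL (SE 0.43, adjusted p = 0.00224) and by 2.96 in RA-deficient PL (SE 0.44, adjusted p = 0.00151), or 2.91 without RA-deficient replicate 3. The PL groups differed by 0.70 (SE 0.16, adjusted p = 0.0223), short of a call, and 0.64 without RA-deficient replicate 3 (adjusted p = 0.0309). Of the 6 genes of its protease cluster on chromosome 9, Prss50 included, 5 rose in RA-sufficient PL, with a median of 2.12, where 26.1% of all genes were higher and the median was 0.043. In RA-deficient PL against In/B, 2 of the 5 tested were higher, where 11.4% of all genes were, and their median was -0.21. Between the PL groups none of the 6 was called, and their median was -2.17. Prss43 to Prss46 were at most 3.25 CPM in any RA-deficient library. Prss42 was at 7.83 to 12.9 CPM in In/B, 40.8 to 48.9 CPM in RA-sufficient PL and 30.2 to 35.3 CPM in RA-deficient PL. It rose by 2.10 (SE 0.22, adjusted p = 8.31e-05) and 1.82 (SE 0.25, adjusted p = 0.00106).

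Another 14 genes of differentiating spermatogonia were set beside these. In RA-sufficient PL 7 of the 14 fell, 2 rose and 5 were not called, where 19.3% of all genes were lower and 26.1% higher. Dnmt3b, a de novo DNA methyltransferase gene, fell in both PL groups, by 2.39 (SE 0.32, adjusted p = 0.00026) and by 1.99 (SE 0.33, adjusted p = 0.00259). So did Lin28b, an RNA-binding protein gene, by 2.23 (SE 0.20, adjusted p = 3.78e-05) and by 1.32 (SE 0.18, adjusted p = 0.0011). Zfp36l2, another RNA-binding protein gene, was at 95.2 to 116 CPM in In/B, 20.2 to 27.0 CPM in RA-sufficient PL, and 78.4, 90.3 and 50.8 CPM in RA-deficient PL. It was higher by 1.63 in RA-deficient than in RA-sufficient PL (SE 0.25, adjusted p = 0.00519). Of the 14, 4 were higher in RA-deficient than in RA-sufficient PL (Nanos3, Rarg, Zfp36l2 and Elavl2) and 1 was lower, Ccnd2. Of all genes 4.47% were higher, and the median was 0.67 over the 14 and -0.089 over all genes.

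Within the RA-deficient group, the mean of replicates 1 and 2 was 26.6 times replicate 3 for Kit, 4.27 times for Dmrt1, 3.87 times for Sohlh1, 1.94 times for Sohlh2 and 1.82 times for Uchl1. Genes that averaged 10 CPM or more over all 9 libraries were ranked by this ratio with 0.5 CPM added to each side. Among these 9698 genes, Kit had the second largest ratio, Dmrt1 ranked 113 and Sohlh1 ranked 153. Only 128 of them (1.32%) were at least 4-fold higher in replicates 1 and 2, and 182 (1.88%) were at least 4-fold higher in replicate 3. Dmrtb1, Rhox13, Prss50, Sall4 and Dmrtc2 differed by less than 1.5-fold between replicate 3 and the mean of replicates 1 and 2, so the split did not run through all 10 genes.

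**Figure D4:**
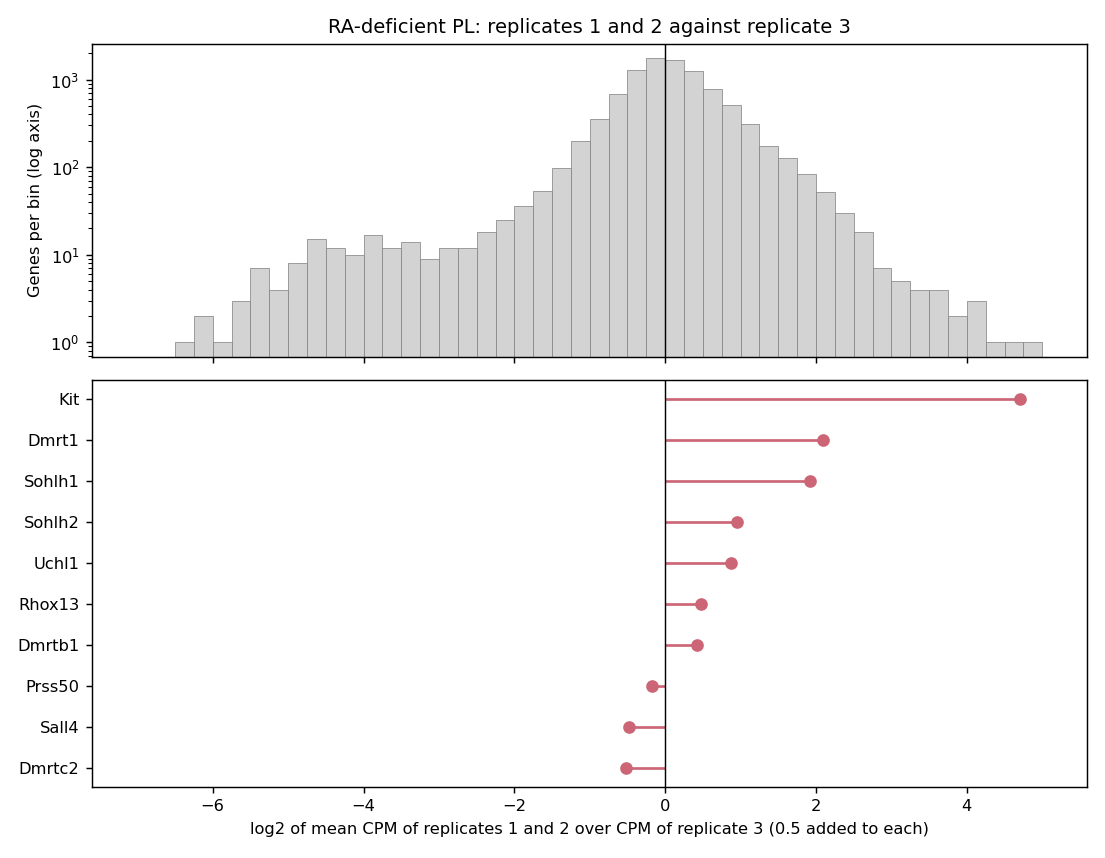
Above, the number of genes in bins of the log2 ratio of RA-deficient replicates 1 and 2 to replicate 3, for 9698 genes, on a log axis; below, the same ratio for each of the 10 genes. Kit lies at 4.70, near the right end of all genes, while Dmrtc2 lies at -0.52 and Prss50 at -0.18.

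The same split is seen when each RA-deficient library is placed on a log2 scale from the In/B mean at 0 to the RA-sufficient PL mean at 1. Kit in replicates 1, 2 and 3 lay at -0.19, -0.16 and 1.16. Sohlh1 lay at 0.11, 0.08 and 0.72. Dmrt1 lay at 0.12, 0.09 and 0.81. For these 3 genes, replicates 1 and 2 were near In/B and replicate 3 was near or beyond RA-sufficient PL. Dmrtb1 lay at 1.03, 1.14 and 1.33, Dmrtc2 at 1.36, 1.36 and 1.57, and Prss50 at 1.26, 1.31 and 1.37, so for these every RA-deficient library was at or past the RA-sufficient mean. Summed pachytene markers were 263 and 274 CPM in replicates 1 and 2 and 646 CPM in replicate 3, against 736 to 1722 CPM in RA-sufficient PL and 100 to 184 CPM in In/B. Of these 9 markers, 2 were higher in RA-deficient PL than in In/B and 7 were not called, where 11.4% of all genes were higher. Hspa2 (132 and 145 CPM) and Mybl1 (124 and 117 CPM) made up most of the sum in replicates 1 and 2. Piwil1 (3.92 and 4.75 CPM) and Ldhc (0.80 and 1.74 CPM) lay below every In/B library there. Stra8, the RA-induced gene of meiotic entry, was at 377, 365 and 81.5 CPM in RA-deficient PL, 444, 126 and 121 CPM in RA-sufficient PL, and 54.4, 165 and 150 CPM in In/B. The part of these differences in the Kit, Sohlh1 and Dmrt1 values was not tested.

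Per kilobase of exon, a scale on which genes can be compared with each other, Uchl1 had the highest mean of the 10 in every group, at 2461 ± 634 CPM per kb in In/B (SD, n = 3), 455 ± 82.3 in RA-sufficient PL and 1339 ± 417 in RA-deficient PL. In In/B, Dmrt1 came next at 229 ± 39.1 and Dmrtb1 after it at 156 ± 20.5 CPM per kb. Neighbouring Sohlh1 and Kit, at 62.0 ± 19.2 and 60.8 ± 7.41, did not differ beyond their spread. In both PL groups Prss50 and Dmrtc2 came next after Uchl1, and in RA-sufficient PL Prss50, at 420 ± 102 CPM per kb, did not differ from Uchl1 beyond their spread. In RA-sufficient PL, Kit was the lowest of the 10 at 5.37 ± 1.80 CPM per kb, with Sohlh1 next at 6.95 ± 2.21 and within their spread.

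The genes most like these, Rhox13 aside, were found by Pearson r of log2(CPM + 1) over the 9 libraries, among 9678 genes averaging 10 CPM or more. The 9 libraries fall into 3 groups, so r largely reflects the group means, and it is a description. For Kit, Sohlh1 and Dmrt1 it also reflects how RA-deficient replicate 3 stood apart from its group. For Kit the nearest were Gli2 (r = 0.991), Zfp609 (0.990) and Zfp64 (0.989). For Dmrt1 they were Vars (0.998), Fcho1 (0.995) and Sdc1 (0.994). For Dmrtc2 they were Ncoa5, Phyhipl and Ppfibp1, each at 0.998. Prss50 was nearest to Dpep3 (0.999), Gm364 (0.994) and Tex101 (0.993). The nearest gene was Agap3 for Sohlh1 (0.989), Ppfia4 for Sohlh2 (0.993), Hdgf for Dmrtb1 (0.989), Polr2e for Uchl1 (0.995) and Srfbp1 for Sall4 (0.980).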

How the data were processed

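mRNA libraries (TruSeq Stranded, single-end, 75 bp) from FACS-sorted cells were analysed. Per the labels and methods, the authors trimmed reads with cutadapt 1.9, aligned them to mm9 with STAR 2.5.2b and counted them with featureCounts. They deposited raw counts per gene, without normalization. The annotation and strand setting are not given in the sources used here. Each group had 3 libraries of 12612959 to 27042274 counts, which limits the precision of low genes.

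Pairs of groups were compared with edgeR 4.0.16 in R 4.3.3 (TMM scaling, filterByExpr, quasi-likelihood test, Benjamini-Hochberg adjustment over all genes). A call needed a log2 fold change above 1 in size and an adjusted p below 0.05. The fit was tested on simulated data. DESeq2 1.42.0, other scalings, filters and thresholds, a replicate block and leaving out each library were alternatives. Coordinates are from GENCODE M1 (mm9). All 10 genes and, from each list of related genes, up to 4 called genes with the largest change and a mean of at least 10 CPM in a group were named, with ligands and markers of other cell types. The genes and lists were chosen with earlier results of these data known. The likeness of other genes to Rhox13 is not reported here.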

Additional observations from a re-analysis of the deposited data

Results flagged for a closer look

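Of the 10 genes, 6 were called different between RA-deficient and RA-sufficient PL, in a direct test of these groups. The In/B libraries came only from mice given no further inhibitor. The change from In/B to PL within the RA-deficient regimen was therefore not measured, and its size cannot be compared between regimens. The log2 differences, with RA-deficient PL higher in each, were 3.54 for Kit, 2.41 for Sohlh1, 1.84 for Sohlh2, 2.25 for Dmrt1, 1.08 for Dmrtc2 and 1.56 for Uchl1. For Kit the RA-deficient libraries did not act as 1 group, since replicate 3 was at 20.3 CPM and the others at 561 and 521 CPM. Replicate 3 of Dmrtc2 was the highest of its group, so that this library raised the difference of Dmrtc2 and lowered those of the other 5 genes.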

How the results depend on the processing

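Over 16 alternatives a comparison, 150 of 180 leave-one-out values and 274 of 300 other values of the 10 genes kept both direction and call. Members called between the PL groups numbered 6, but 1 when tested against a fold change of 2 (Sohlh2), 2 at an adjusted p of at most 0.01, and 2 to 6 with 1 library left out. Leave-one-out gave 7 to 8 against In/B for RA-sufficient PL and 4 to 5 for RA-deficient PL. All genes called between the PL groups numbered 2383, but 741 against a fold change of 2, 973 at an adjusted p of at most 0.01, 3629 on adjusted p alone and 1190 to 4484 with 1 library left out. For RA-deficient PL against In/B, 3446 became 1207 against a fold change of 2 and 5459 on adjusted p alone.

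Scaling by library size alone moved the median of all genes from 0.0038 to -0.31 for RA-deficient PL against In/B (1123 higher and 2762 lower, against 1693 and 1753) and from -0.089 to -0.27 between the PL groups (426 higher and 2003 lower, against 687 and 1696). Against In/B it took Kit to -0.0917, and Uchl1 (-1.03) and Sall4 (-1.11) were then called. Directions turned only where no call was made. For Kit in RA-deficient PL against In/B they were -0.22 and -0.12 without RA-deficient replicates 1 and 2, in a leave-one-out range of -0.22 to 0.78, and for Rhox13 in RA-sufficient PL 0.0239 with a mean of at least 50 counts and 0.20, 0.06 and 0.10 without In/B replicate 2 or RA-sufficient replicates 1 and 2. Between the PL groups the leave-one-out range was -0.63 to 0.11 for Dmrtb1 and -0.0311 to 0.48 for Sall4, turning without RA-sufficient replicate 1.

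Same-numbered libraries deviated together in no comparison in all 3 pairs (correlations of -0.25 to 0.12). Only In/B replicate 3 correlated best with its own number, against RA-deficient PL. With 3 libraries a group, and 1 of them apart in each, this cannot show that same-numbered libraries were prepared separately. With the replicate block, 5 genes were called between the PL groups in place of 6, Kit being lost, Kit stood at -0.50 in RA-deficient PL against In/B, and all genes called numbered 1765. The cause of these changes was not tested.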
